A study of Saccharomyces cerevisiae with 176 samples.

Results

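The genes described here encode the proteasome of Saccharomyces cerevisiae: 14 subunits of the core particle, 18 subunits of the regulatory particle, and RPN4, the transcription factor that activates them. These 33 genes were taken by name out of 6692 genes in the deposited expression table, and each of them is present in all 176 libraries. The alpha ring of the core is SCL1 (YGL011C), PRE8 (YML092C), PRE9 (YGR135W), PRE6 (YOL038W), PUP2 (YGR253C), PRE5 (YMR314W) and PRE10 (YOR362C), and its beta ring is PRE3 (YJL001W), PUP1 (YOR157C), PUP3 (YER094C), PRE1 (YER012W), PRE2 (YPR103W), PRE7 (YBL041W) and PRE4 (YFR050C). The base of the regulatory particle is RPT1 (YKL145W), RPT2 (YDL007W), RPT3 (YDR394W), RPT4 (YOR259C), RPT5 (YOR117W), RPT6 (YGL048C), RPN1 (YHR027C), RPN2 (YIL075C), RPN10 (YHR200W) and RPN13 (YLR421C). Its lid is RPN3 (YER021W), RPN5 (YDL147W), RPN6 (YDL097C), RPN7 (YPR108W), RPN8 (YOR261C), RPN9 (YDR427W), RPN11 (YFR004W) and RPN12 (YFR052W), and the regulator is RPN4 (YDL020C). The libraries are RNA sequencing of yeast cultures in 81 groups, and they address how gene expression differs between euploid and aneuploid cells and between growth states.

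The groups are as follows. In batch culture, S288C strains with complex aneuploid karyotypes, named A1 to A38, were grown exponentially in rich glucose medium in 6 experiments, exp1 to exp6, and the 2N control of exp1 to exp3 is used here. In a chemostat, 9 aneuploid strains and 2N were held at steady state under phosphate limitation. Heterogeneous euploid and aneuploid populations were obtained from sporulated diploids and triploids that carried the plasmid pRS315-STE2pr-spHIS5, and were collected under a dilution protocol and a Tsai protocol beside exponentially growing WT cells. The labels do not say how the dilution and Tsai protocols differ. A WT haploid was sampled at 14 times from 0 to 26 h of growth, and W303 WT haploid cells were sampled after 40 min in 500 mM NaCl. Each population is a pool of many spore colonies.

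The proteasome degrades proteins tagged with ubiquitin. Its core particle is a barrel of outer alpha rings and inner beta rings, and the proteolytic sites lie inside, on beta1 (PRE3), beta2 (PUP1) and beta5 (PRE2). The regulatory particle caps the barrel: its base holds the RPT ATPases that unfold substrates, the scaffolds RPN1 and RPN2 and the ubiquitin receptors RPN10 and RPN13, and its lid holds the deubiquitinase RPN11. Rpn4 binds a promoter element called PACE in front of most proteasome genes and is itself degraded by the proteasome, so the supply of subunits is known to be held by a feedback loop. A change of karyotype alters the dose of subunits encoded on different chromosomes, which are required in fixed ratios in the assembled particle.

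The PACE element GGTGGCAAA was searched on both strands in the 300 bases before each start codon, with coordinates from the deposited annotation and bases from RefSeq's R64 genome (sacCer3). It occurred before 12 of 14 core genes and 15 of 18 regulatory genes, against 78 of 6663 such windows in the genome (1.171%). The 27 matches lay 75 to 174 bases before the start codon (median 111), 19 of them on the strand of the gene and 8 on the opposite strand. PRE5, PUP1, RPN8, RPN10 and RPN13 had no full match, nor had RPN4. RPN10 and RPN13 held the shorter form GGTGGC, which lies within PACE and was found in 6.664% of all windows.

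The sites printed here belong to subunits with catalytic roles or to members whose RNA moved furthest in the time course. Each is written 5′ to 3′ on the strand of the gene, with the match in capitals. A match in the opposite orientation reads TTTGCCACC.
PRE2 (beta5, chymotrypsin-like site; chrXVI:732184-732212, plus strand): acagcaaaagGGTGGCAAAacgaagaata
PRE3 (beta1, caspase-like site; chrX:435035-435063, plus strand): aacggaatccGGTGGCAAAaaagggaaaa
PUP2 (alpha5; chrVII:999226-999254, minus strand): aaccaagaccGGTGGCAAAagagtaacct
PRE6 (alpha4; chrXV:255218-255246, plus strand): cgaagattctTTTGCCACCggaagggaaa
RPT2 (ATPase of the base; chrIV:437906-437934, plus strand): gtttttctccGGTGGCAAAtgtctctttt
RPN6 (lid; chrIV:286790-286818, minus strand): tggttccaagGGTGGCAAAtgttggtaga
RPN11 (deubiquitinase of the lid; chrVI:153259-153287, plus strand): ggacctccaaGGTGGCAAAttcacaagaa
RPN12 (lid; chrVI:252398-252426, plus strand): ctacacattaTTTGCCACCcattgaaatt
RPN13 (ubiquitin receptor, shorter form only; chrXII:965659-965684, minus strand): ttattcgcgaGGTGGCgaaagctttg
The search was for an exact match on either strand, so the first 8 of these hold the same 9 letters by design. The flanking bases differ from gene to gene.

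Levels are given as scaled TPM: the TPM of each gene divided by the summed TPM of nuclear open reading frames in its library, times 1000000. This scale was needed because those frames made up 4.97% to 12.1% of TPM in exp1 to exp4 (total RNA), 14.0% to 20.5% in the NaCl libraries, 85.0% to 99.6% in exp5, exp6, the chemostat and the populations, and 15.4% to 97.2% in the time course. A difference is called at an adjusted p under 0.05 (limma, Benjamini-Hochberg over all genes tested), and all 33 members passed the filter on low values in each fit. Replicates are separate libraries of 1 group. RPT1 overlaps another annotated frame on its own strand, YKL145W-A, so its reads may be shared.

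In exponential batch culture, 5 core particle genes passed as higher in aneuploid strains than in 2N, and the regulatory particle had 1 gene in each direction; with strain as a random block 0 of the 33 members were called. Across the mean of 10 strains, 5 of 14 core genes were higher (6.46% of 3623 tested genes were) and 0 were lower (4.00% of tested genes were), while 1 of 18 regulatory genes was higher and 1 was lower. The median core gene changed by 0.32 on the log2 scale relative to the median of all genes, with 13 of 14 above that median, and the median regulatory gene by 0.07, with 13 of 18 above. RPN4 changed by 0.17 ± 0.16 (SE) and was not called (adjusted p = 0.568).

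The summed level of the 14 core genes shows the same difference library by library. In exp1 the 4 libraries of 2N held 3552 to 4645 scaled TPM (median 4032) and the 10 aneuploid libraries held 4281 to 5597 (median 4769), with 7 of them above all 2N libraries. In exp2 the 2N libraries held 3552 and 3657 and the 12 aneuploid libraries 3682 to 5395 (median 4640.2), so the groups did not overlap. In exp3 the 2N libraries held 2169 and 2303 and the 14 aneuploid libraries 2589 to 4053 (median 2973), again without overlap. The median of all genes itself changed by -0.07, -0.14 and 0.18 in exp1, exp2 and exp3 alone. Levels in exp3, summed or of single genes, thus include an upward shift of all genes. How many of all genes lay without overlap was not counted. The summed regulatory level overlapped in all 3 experiments: in exp1 0 of 10 aneuploid libraries lay above all 2N libraries (3997 to 4714 in 2N, 4004 to 4645 in the others), in exp2 10 of 12 and in exp3 13 of 14. The 2N libraries are shared by all strains of an experiment, so the strains are not independent comparisons.

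The core genes that passed were 4 of the alpha ring and 1 of the beta ring. PUP2 (alpha5) was highest in change, at 0.53 ± 0.15 (adjusted p = 0.0197). In exp1 its levels in 2N were 169.9, 326, 246 and 256 scaled TPM, and the aneuploid libraries ran from 188 over a median of 432 to 529, with 8 of 10 above all 2N libraries. In exp3 11 of 14 lay above both 2N libraries. In exp2 7 of 12 lay above both and 5 below, and PUP2 changed by 0.09 in exp2 alone (adjusted p = 0.901). PRE9 (alpha3, the one core subunit that yeast can live without) was higher by 0.48 ± 0.13 (adjusted p = 0.0115), SCL1 (alpha1) by 0.46 ± 0.14 (adjusted p = 0.0286) and PRE5 (alpha6) by 0.43 ± 0.14 (adjusted p = 0.0391). PRE2 (beta5), which carries the chymotrypsin-like site, was higher by 0.27 ± 0.08 (adjusted p = 0.0149). Its exp3 levels were 197 and 175 in 2N and 139 to 340.1 (median 225) in the aneuploid libraries, 11 of 14 of them above both 2N libraries. In exp1 5 of 10 aneuploid libraries lay above all 2N libraries of PRE2 and 3 below, and in exp2 5 of 12 above and 1 below. The other 9 core genes had estimates between -0.05 (PRE1, beta4) and 0.44 (PRE8, alpha2; adjusted p = 0.0604).

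Of the regulatory particle, the scaffold RPN2 was higher by 0.35 ± 0.07 (adjusted p = 0.00126). In exp3 its 2N levels were 163 and 189.9 scaled TPM and all 14 aneuploid libraries lay above them, from 207 to 393. The median of all genes was itself 0.18 higher in exp3 alone. RPT4, an ATPase of the base, was lower by 0.29 on the log2 scale in the mean of the strains (change -0.29 ± 0.10, adjusted p = 0.0486), and exp3 by itself gave a change of 0.11 in the other direction. The deubiquitinase RPN11 had -0.08 ± 0.15 and the ubiquitin receptors RPN10 and RPN13 had 0.09 ± 0.20 and -0.02 ± 0.31.

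**Figure D1:**
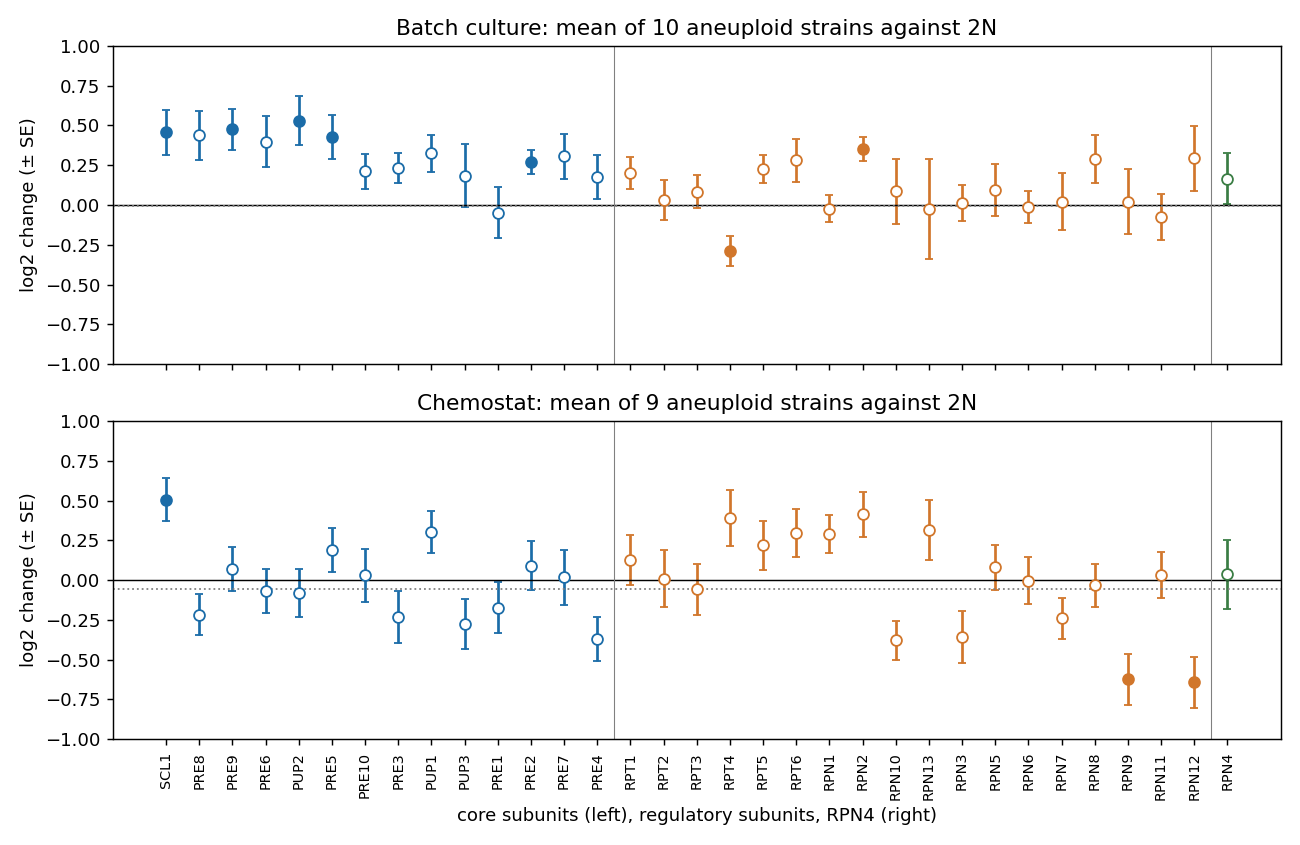
Change of each member between the mean of the aneuploid strains and 2N, in batch culture (top) and in the chemostat (bottom), on the log2 scale with its standard error. Filled points passed the adjusted threshold, the dotted line is the median of all genes, and core genes in batch culture sit mostly above it.

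These calls depend on how strains and experiments are treated. The random block for strain, which left 0 calls, had an estimated correlation of 0.315 between libraries of a strain. Within exp1, exp2 and exp3 taken alone 1, 0 and 2 members were called, where 266, 106 and 223 of 3623 tested genes were. The core median relative to all genes was 0.39, 0.45 and 0.32 in these experiments. Without the second 2N library of exp2, or without the second 2N library of exp3, 4 members were called in place of 7. Of 25 tested genes among 30 other genes of the pathway (assembly chaperones, shuttle factors and regulators of RPN4), 4 were higher and 0 lower: CUZ1 by 0.83 ± 0.22 and TMC1 by 0.72 ± 0.20, zinc finger proteins that bind the proteasome, DSK2, a ubiquitin receptor that brings substrates, by 0.39 ± 0.12, and CDC48, the segregase ATPase, by 0.27 ± 0.06.

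Much of the variation of single subunits between strains ran along with the chromosome that carries them. In the 10 batch strains, subunit genes on a chromosome whose median was at least 0.25 above all genes were higher than the median of all genes in 63 of 63 gene and strain pairs, by a median of 0.61. On chromosomes with a median of -0.1 or less, the 58 core pairs still had a median change of 0.10, with 21 below 0, and the 108 regulatory pairs had -0.03, with 59 below 0. Set against its own chromosome, the median core pair was 0.31 higher and the median regulatory pair 0.20 higher. When the chromosome medians were subtracted before the fit, 2 members were called, where 6.98% of tested genes were in either direction: PRE2 at 0.41 (adjusted p = 0.00409) and RPN2 at 0.30 (adjusted p = 0.0146). The core median relative to all genes was 0.32 after this step. SCL1, PRE9 and PUP2 lie on chromosome VII, whose median was above 0 in 7 of the 10 strains, and were no longer called. Their estimates were then 0.29, 0.305 and 0.36 (adjusted p = 0.181, 0.165 and 0.175). PRE5 on chromosome XIII, at 0.28 (adjusted p = 0.253), and RPT4 on chromosome XV, at -0.29 (adjusted p = 0.129), lost their calls as well.

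Strain by strain, A21 stood out for RPN4. In A21, 9 core genes, 5 regulatory genes and RPN4 were higher than in 2N, where 13.3% of tested genes were. RPN4 in A21 was 177.8 and 235 scaled TPM in exp1 against 84.7 to 142 in the 4 libraries of 2N, 119 and 142 in exp2 against 117 and 71.0, and 112 and 129 in exp3 against 32.6 and 54.8. The A21 values exceeded those of 2N in every experiment, by 0.88 ± 0.21 in the fit (adjusted p = 0.00181). Chromosome IV, which carries RPN4, had a median of 0.19 in A21, so RPN4 was 0.71 higher than its chromosome. Of the other 9 strains, none had a called change of RPN4, with estimates of -0.49 (A18) to 0.51 (A1). In A19, 6 core genes and RPN2 were higher (5.13% of tested genes were) and RPT4 was lower (7.65% of tested genes were), with PUP2 at 0.95 and PRE8 at 0.93.

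The strains of exp5 and exp6, sequenced after poly(A) selection and compared with each other since no 2N library of these experiments was analysed here, showed the tie to chromosomes with less scatter. All 33 members differed between the 12 strains (moderated F test; 99.2% of 2820 tested genes did). Across 384 pairs of subunit gene and strain, the change against the other 11 strains had a Pearson r of 0.914 with the median of the chromosome and a slope of 0.994; the pairs share libraries and are described here without a test. The scatter around the chromosome had an SD of 0.11 for subunits and 0.33 for RPN4. Over the 12 strains these changes nearly cancel for each gene, so an offset shared by all strains could not show. After subtraction of the chromosome medians, 28 of 33 members still differed between strains, as did 91.8% of all tested genes.

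Core genes lay lower and regulatory genes higher at the median in strains A32, A34 and A38. Relative to all genes the core and regulatory medians were -0.26 and 0.11 in A32, -0.28 and 0.11 in A34, and -0.23 and 0.24 in A38. In A28, A30, A33 and A36 the core median was above and the regulatory median below that of all genes. The chromosome medians of A32 and A34 differed by at most 0.057 on each of 16 chromosomes, so they are not separate examples. In A32, 12 of 14 core genes were lower than in the other strains (38.3% of tested genes were), and in A34 also 12 (29.5% of tested genes were). PRE3 on chromosome X was the only core gene higher in both, by 0.34 and 0.38. The 5 regulatory genes on chromosome IV, RPT2, RPT3, RPN5, RPN6 and RPN9, were higher in both strains. Their changes were 0.36 to 0.45 in A32 and 0.42 to 0.58 in A34, beside chromosome medians of 0.51 and 0.52. Other regulatory genes were lower, 7 of 18 in A32 (38.3% of tested genes were) and 5 of 18 in A34 (29.5% of tested genes were). Over all regulatory genes, estimates ran from -0.39 to 0.45 in A32 and from -0.28 to 0.58 in A34. In exp5 the summed regulatory level was 0.92 times the core level in A32 and 0.95 times in A34. It was between 0.66 and 0.87 times in the other 10 strains, with A38 at 0.87.

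RPN4 left its chromosome furthest in A35 and A1. Its exp5 levels were 25.8 and 25.8 scaled TPM in A35, the lowest of the 12 strains, and 65.3 and 63.6 in A1. Against the other strains RPN4 was -0.77 ± 0.13 in A35 (adjusted p = 3.85e-06) and 0.64 ± 0.13 in A1 (adjusted p = 2.00e-04), where chromosome IV had medians of -0.07 and 0.05. In A1 the subunits did not move with it: 14 of 14 core genes and 17 of 18 regulatory genes lay below their chromosomes, by a median of -0.19 and -0.07. In A35 the core and regulatory medians were -0.03 and -0.04 from their chromosomes. In exp6 RPN4 ran from 35.5 in A30 to 78.4 in A38.

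**Figure D2:**
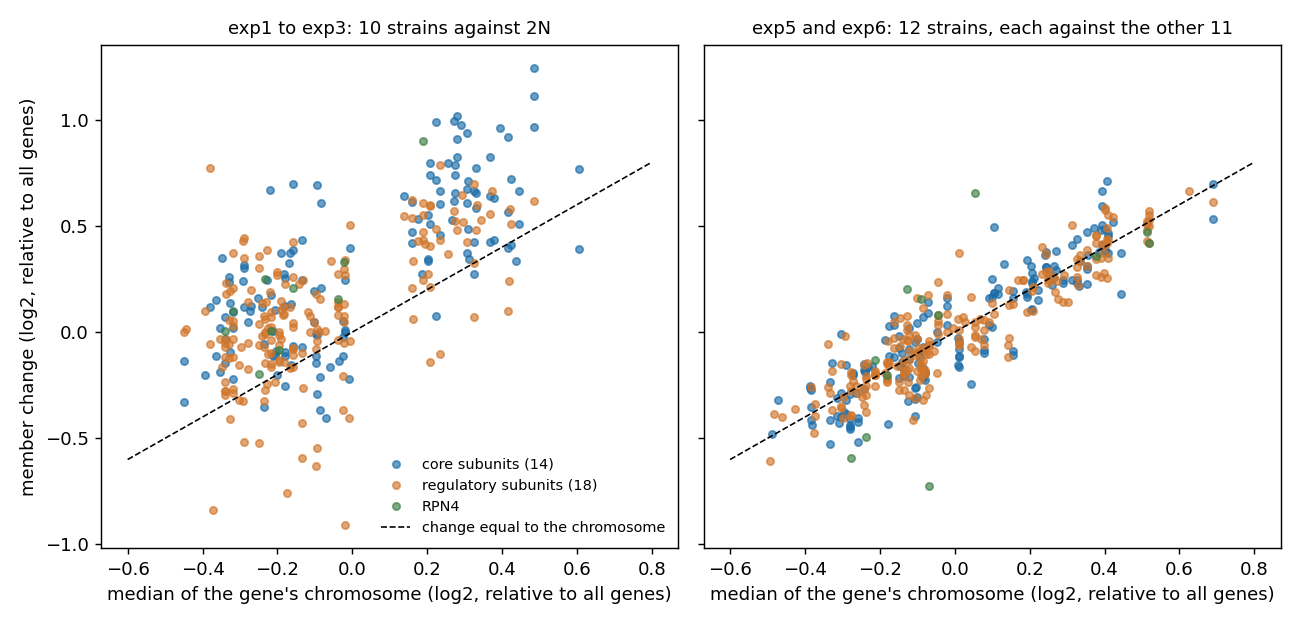
Change of each member in each strain (vertical) against the median change of its chromosome in that strain (horizontal), both on the log2 scale relative to all genes; the dashed line marks equality. Points of exp5 and exp6 follow the line, with RPN4 in A35 and A1 furthest from it, and points of exp1 to exp3 lie mostly above it.

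In phosphate-limited chemostats few proteasome genes passed against the 2 libraries of 2N. Over 9 aneuploid strains, 1 core gene was higher (4.13% of 3727 tested genes were) and 0 were lower, and 2 regulatory genes were lower (7.89% of tested genes were). Relative to all genes the core median was 0.03 and the regulatory median 0.08. RPN4 differed by 0.04 ± 0.22 (adjusted p = 0.939); it was 80.8 and 99.4 scaled TPM in 2N and 62.6 to 138 (median 92.5) in the 18 aneuploid libraries, with A21 at 132.7 in both libraries.

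SCL1 (alpha1) was 206 and 183 scaled TPM in chemostat 2N and 145 to 421 (median 285) in the aneuploid libraries, 14 of 18 of which lay above both. Its change was 0.51 ± 0.14 (adjusted p = 0.0286). RPN12, a lid subunit, was 169.7 and 146 in 2N and 76.9 to 129 (median 103) in the others. All 18 thus lay below both libraries of 2N, with a change of -0.64 ± 0.16 (adjusted p = 0.0204). How many of all tested genes lay apart in this way was not counted. RPN9, also of the lid, was 138 and 94.8 in 2N and 42.4 to 196 (median 62.6) in the others, with a change of -0.62 ± 0.16 (adjusted p = 0.0239). RPN9 was at 174.5 and 196 in A21, above both 2N libraries, so the strains did not all go the same way.

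Library codes split the chemostat samples: 2N, A20, A21 and A23 are marked d204, and the other 6 strains d236. Among the libraries of code d204 alone, 1 member was called, where 412 of 3727 tested genes were. In these libraries RPN9 changed by 0.08 (adjusted p = 0.813), RPN12 by -0.46 (adjusted p = 0.123) and SCL1 by 0.22 (adjusted p = 0.44). For the 6 strains of the other code, strain and code cannot be told apart. Without either 2N library 1 member was called in place of 3. Of 23 tested genes of the wider pathway, 0 passed in either direction.

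The difference between chemostat and batch culture was tested for the 5 strains grown in both (A18, A20, A21, A22 and A23). Nuclear frames made up 4.97% to 11.5% of TPM in exp1 to exp3 and 85.0% to 98.9% in the chemostat. Growth setting and this difference between libraries cannot be told apart. Chemostat A18 and A22 also carry a library code (d236) other than that of their 2N (d204). By limma 0 of 33 members passed, where 1.91% of 3661 tested genes did, and 1 member had an unadjusted p under 0.05. The core median of this difference was -0.29 relative to all genes, and 2 of 14 core genes lay above the median of all genes. PRE3 had the smallest adjusted p among members, with -0.44 ± 0.20 (adjusted p = 0.383; unadjusted p = 0.0329), and PRE6 the largest estimate in the core, with -0.59 ± 0.31 (adjusted p = 0.545). So a lower aneuploid effect on core genes in the chemostat was not shown at this number of libraries.

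In pooled aneuploid populations collected under the dilution protocol, every proteasome gene was higher than in the euploid population, although PRE10, RPN8 and RPT5 turned to the other direction when library medians were centred. All 14 core genes, all 18 regulatory genes and RPN4 passed, where 59.3% of 3904 tested genes were higher and 20.1% lower. The median of all genes itself shifted by 0.21 in this comparison. Relative to it the core median was 0.20 and the regulatory median 0.08, and with library medians centred 25 members were higher and 1, RPT5, was lower, where 71.2% of tested genes were called in either direction (79.4% on the main scale). The summed core level was 4370.5 ± 52.3 scaled TPM (SD, n = 3) in the euploid and 5838 ± 169 (SD, n = 3) in the aneuploid population, without overlap. Chromosome XV, which carries PRE10, RPN8, RPT5, PRE6, PUP1 and RPT4, had the lowest chromosome median relative to all genes, -0.22. Chromosome II, which carries PRE7, had the highest, 0.20. The part of the chromosomes in these changes was not tested.

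PRE7 (beta6) rose most, from 301, 291.5 and 294 scaled TPM in the euploid libraries to 469.8, 436 and 462 in the aneuploid libraries, by 0.62 ± 0.03 (adjusted p = 3.47e-11). PRE5 (alpha6) rose by 0.60 ± 0.03 (adjusted p = 1.69e-11). In the regulatory particle the ubiquitin receptor RPN10 rose by 0.52 ± 0.04, the scaffold RPN2 by 0.45 ± 0.03, RPN8 by 0.13 ± 0.03 and RPT5 by 0.11 ± 0.04. In a pool, fewer cells with a high level and a lower level in each cell cannot be told apart. RPN4 was 88.0, 88.5 and 91.4 in the euploid and 128, 127 and 149 in the aneuploid libraries, a change of 0.59 ± 0.06 (adjusted p = 5.78e-08). Of 26 tested genes of the pathway 24 were higher and 1 lower. UMP1, the chaperone of core maturation, was higher by 0.91 ± 0.06, YAP1 by 0.81 ± 0.05 and HSF1 by 0.78 ± 0.06, both activators of RPN4 transcription, and IRC25, a chaperone of the alpha ring, by 0.77 ± 0.08. The frame of HSF1 overlaps frames on the other strand, and the labels do not say whether counting used strand.

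Under the Tsai protocol the same comparison was mixed. Of core genes 7 were higher and 3 lower, of regulatory genes 8 were higher and 5 lower, and RPN4 was higher by 0.24 ± 0.06 (adjusted p = 0.000962); 40.8% of tested genes were higher and 41.9% lower. RPN1, the larger scaffold, was higher by 0.36 ± 0.04 and PUP3 (beta3) by 0.35 ± 0.03. RPN8, a lid subunit, was 404, 403 and 399.9 scaled TPM in the euploid and 310.3, 309 and 311 in the aneuploid libraries, a change of -0.38 ± 0.03 (adjusted p = 5.79e-10). RPT4 changed by -0.32 ± 0.04, and PRE2 (beta5) and RPN11, the deubiquitinase, by -0.24 ± 0.04 and -0.24 ± 0.03. Relative to all genes the chromosome medians were -0.20 for XV (RPN8, RPT4), -0.08 for XVI (PRE2) and -0.23 for VI (RPN11). They were 0.13 for VIII (RPN1) and 0.10 for V (PUP3). The part of the chromosomes in these changes was not tested. Of the pathway 13 genes were higher and 8 lower, with RAD6, a ubiquitin-conjugating enzyme, at 0.89 ± 0.06, TMC1 at -0.84 ± 0.04, NAS2, a chaperone of the base, at -0.67 ± 0.12 and PDR1, an activator of RPN4 transcription, at 0.60 ± 0.06.

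The aneuploid effect was lower under the Tsai protocol than under the dilution protocol for 31 of 33 members (55.1% of tested genes were lower and 28.9% higher). The median of all genes was -0.26 in this difference, and the core and regulatory medians relative to it were -0.09 and -0.02. With library medians centred, 17 members were lower and 2 higher, the latter being RPT1 and RPN1, and 80.2% of tested genes were called in either direction. PRE2 had the largest difference, -0.58 ± 0.06 (adjusted p = 4.03e-08), and RPT1 and RPN1 were not called on the main scale. Of the pathway 3 genes were higher and 19 lower in this difference, with NAS2 at -1.37 ± 0.17, the shuttle factor DDI1 at -0.87 ± 0.10, the base chaperone NAS6 at -0.80 ± 0.08 and IRC25 at -0.75 ± 0.11. The protocols also differed in their euploid populations. Against exponential WT cells, 7 core genes, 9 regulatory genes and RPN4 were higher and 6 regulatory genes lower in the Tsai euploid population (47.7% of tested genes higher, 41.0% lower), while in the dilution euploid population 4 core and 2 regulatory genes were higher and 4 core genes, 7 regulatory genes and RPN4 lower (34.2% higher, 40.5% lower).

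PRE3 (beta1) was higher than in WT in both euploid populations. Its levels were 211, 206 and 203 scaled TPM in WT, 282, 289 and 274 in the dilution and 336, 334 and 317 in the Tsai euploid population, changes of 0.44 ± 0.04 and 0.67 ± 0.04. RPN4 went in opposite directions, with 125, 123 and 113 in WT, 88.0 to 91.4 in the dilution and 148, 141 and 143 in the Tsai euploid population, changes of -0.43 ± 0.06 and 0.26 ± 0.06. The same WT libraries serve both comparisons. With library medians centred the Tsai euploid population had 8 members higher and 19 lower than WT in place of 17 and 6, and 90.2% of tested genes were called in either direction. Of the pathway 12 genes were higher and 10 lower in the Tsai euploid population, led by NAS2 at 1.42 ± 0.12 and PDR1 at -1.01 ± 0.06, and 9 were higher and 12 lower in the dilution euploid population, led by PDR1 at -0.83 ± 0.06 and YAP1 at -0.65 ± 0.05. The replicates of these populations differ little, so small changes pass, and the labels do not say whether they are separate cultures.

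**Figure D3:**
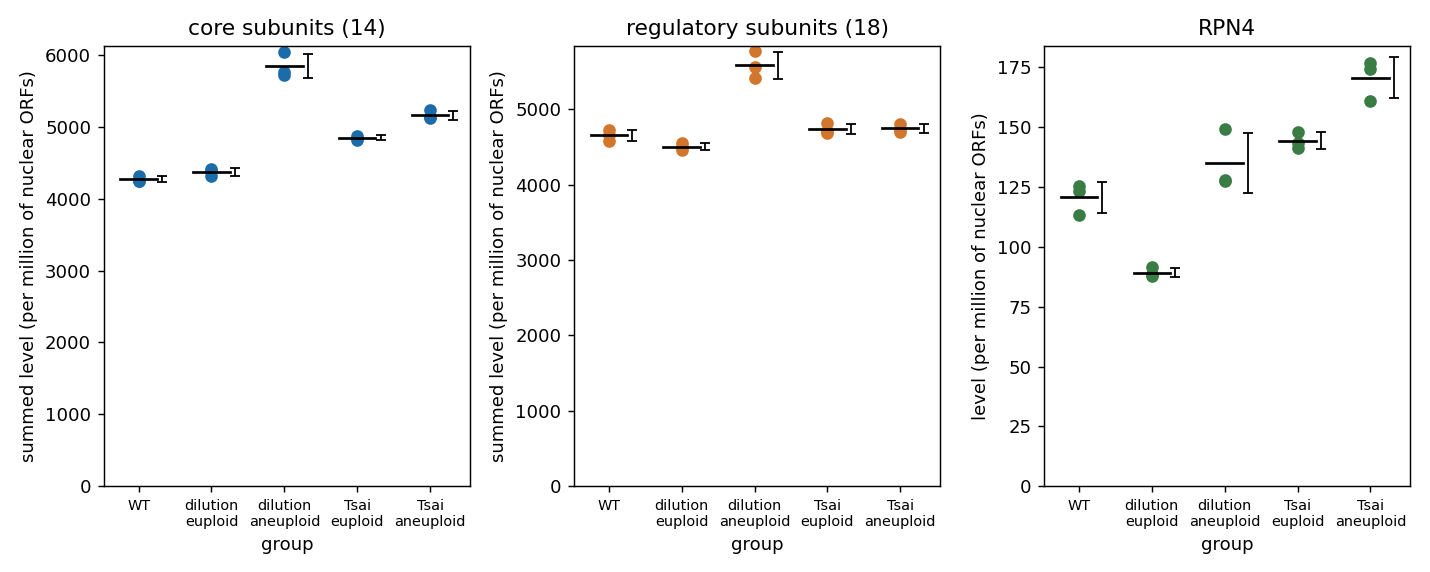
Summed level of core genes, summed level of regulatory genes and level of RPN4 in each library of the populations and WT, in scaled TPM (per 1000000 of nuclear open reading frames); bars mark means and whiskers the SD of 3 libraries. The dilution aneuploid libraries are highest for both particles, and RPN4 is lowest in the dilution euploid libraries.

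In the growth time course of the WT haploid, no proteasome gene passed in a step between neighbouring times up to 14 h, most of them rose at 16 h, and the core and regulatory sums then parted. All 14 core genes, 16 of 18 regulatory genes and RPN4 changed over time (moderated F test; 94.4% of 2897 tested genes did), and RPT3 and RPN1 did not pass. By limma 0 members were called in each of the 7 steps up to 14 h, with 0 to 7 members at an unadjusted p under 0.05 (7 from 0 to 2 h, where the mean core sum was 3859 and 4342). In the step from 12 to 14 h, 19.8% of all genes were called. The share of all genes called in the earlier steps is not given here, so those steps do not set the members apart from other genes. In the 16 libraries of 0 to 14 h the highest core gene was 1.76 to 2.05 times the lowest, and the highest regulatory gene 2.78 to 3.74 times the lowest.

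At 16 h against 14 h, 11 core genes, 14 regulatory genes and RPN4 were higher and 0 members lower (45.7% of tested genes were higher, 26.5% lower). This step was chosen because earlier results of these data place a large change of all genes there, and the median of all genes rose by 0.32. Relative to it the core median was 0.15 and the regulatory median 0.38, and 17 members were higher with library medians centred, where 69.6% of tested genes were called in either direction. On values as deposited 1 member was called. RPN4 was 46.4 and 45.1 scaled TPM at 14 h and 139 and 111 at 16 h, a change of 1.42 ± 0.16 (adjusted p = 1.91e-07) and 2.73 times as a ratio of means. The lid subunits RPN12 and RPN6 rose most among subunits, by 1.196 ± 0.17 and 1.02 ± 0.10. RPN12 went from 131 and 139 to 315 and 307, and RPN6 from 162 and 167 to 333 and 336. Among core genes PRE5 (alpha6) rose by 0.76 ± 0.11 and PUP3 (beta3) by 0.65 ± 0.11, whereas PRE2 (beta5) had 0.08 ± 0.08 (adjusted p = 0.405).

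The genes that did not pass at 16 h were PRE6, PUP1 and PRE2 of the core and RPT3, RPN1, RPN7 and RPN9 of the regulatory particle, with estimates from 0.08 to 0.36. The median change of the 27 subunits with a full PACE match was 0.53 (0.08 to 1.196) and that of the 5 without was 0.78 (0.28 to 0.95). Over the means of 9 times from 0 to 16 h, the level of RPN4 had a positive Pearson r with each of 32 subunits (median 0.906), and over all 14 times with 22 of 32 (median 0.462). Subunits did likewise with each other: to 16 h every pair was positive, with medians of 0.825 within the core, 0.864 within the regulatory particle and 0.846 between them. The window to 16 h ends with the rise at 16 h, the only step in it with called members, and r without that time was not computed. How many of all genes had a positive r with RPN4 was not counted. The times share one course, so these are descriptions. In the wider pathway 16 of 22 tested genes were higher and 1 lower: NAS2 rose by 1.69 ± 0.19, TMC1 by 1.48 ± 0.14 and HSM3, a chaperone of the base, by 1.25 ± 0.23, while POC4, a chaperone of the alpha ring, changed by -1.74 ± 0.38.

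After 16 h the summed levels of the particles went different ways. The summed core level rose from 4029 and 4033 scaled TPM at 14 h to 5573 and 5350.3 at 16 h, and lay at 4462 and 4484 at 18 h and between 3530.5 and 3836 at 22 to 26 h. The summed regulatory level was 2928 and 2993 at 14 h, 5099.8 and 4486 at 16 h, 5325 and 5599 at 18 h, and still 4449 to 5122 at 22 to 26 h. The regulatory sum was on average 0.73 times the core sum at 14 h and 1.38 times at 22 h. Single genes weigh on this sum. At 22 to 26 h RPN8 and RPN13 were at 3.72 and 2.15 times their means of 0 to 4 h (227 and 269 scaled TPM). RPN7 and RPN9 were at 0.65 and 0.64 times theirs. From 16 to 18 h, 7 core genes fell and 1 rose, and 2 regulatory genes rose and 0 fell (22.1% of tested genes rose, 21.3% fell).

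**Figure D4:**
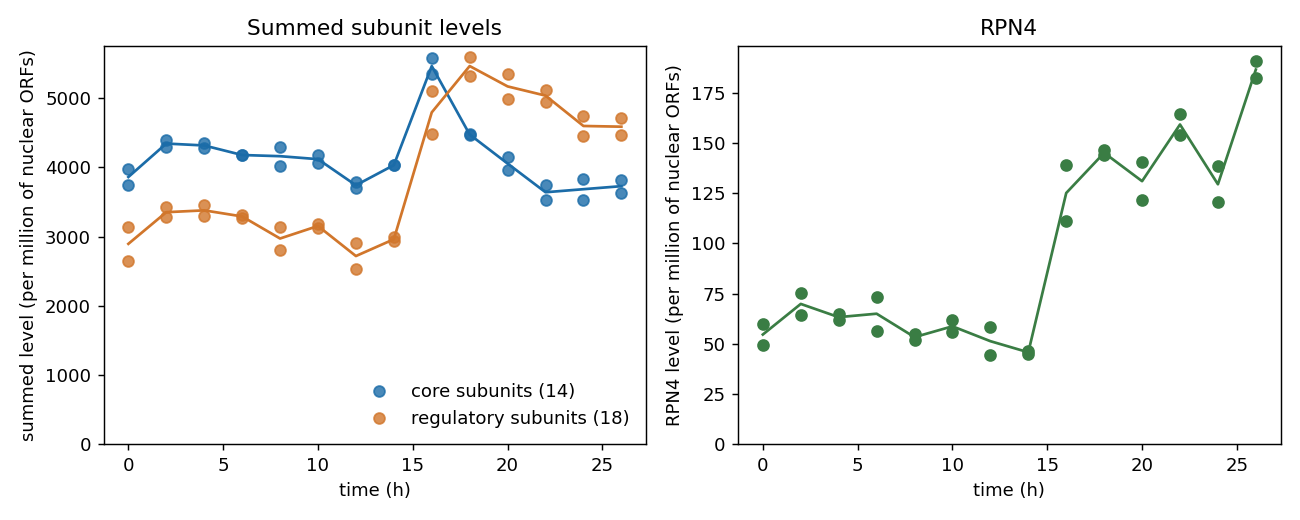
Summed levels of the 14 core and 18 regulatory genes (left) and level of RPN4 (right) over time in hours, in scaled TPM (per 1000000 of nuclear open reading frames); points are the 2 libraries of each time and lines their means. Core and regulatory levels rise at 16 h, core levels then fall to between 3530 and 4484, and RPN4 lies between 111 and 191 from 16 h on.

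At 22 to 26 h against 0 to 4 h, 2 core genes were higher and 8 lower, 12 regulatory genes were higher and 4 lower, and RPN4 was higher by 1.32 ± 0.09 (49.2% of tested genes were higher, 39.5% lower). Relative to the median of all genes, which was 0.23, the core median was -0.50 and the regulatory median 0.06. Genes with coding lengths in the core range (597 to 867 bases) had a median change of 0.14 and those between the quartiles of the regulatory range (1058 to 1332 bases) 0.15. Nuclear frames fell from 86.9% to 95.8% of TPM at 0 to 4 h to 15.4% to 61.1% at 22 to 26 h. On the TPM values as deposited 0 members were higher and 27 lower, with the median of all genes at -1.32, so directions in this comparison are relative to other nuclear genes.

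Within the core, PUP1 and PRE6 dropped and PUP2 rose. PUP1 (beta2), which carries the trypsin-like site, was 203.6 to 245 scaled TPM in the 6 libraries of 0 to 4 h, 296 and 311 at 16 h, 108 and 81.2 at 18 h and 54.6 to 118 at 22 to 26 h. Its change was -1.55 ± 0.16 over the whole course (adjusted p = 3.74e-08) and -1.68 from 16 to 18 h (adjusted p = 0.000111). PRE6 (alpha4) was 342.5 and 349 at 16 h and 155 and 157 at 18 h, and changed by -1.09 ± 0.10 over the course. PUP2 (alpha5) went the other way, from 222 to 291 at 0 to 4 h to 398 to 585 at 22 to 26 h, by 0.96 ± 0.06 (adjusted p = 7.09e-12). PRE9 changed by -0.82 ± 0.07 and PRE4 (beta7) by -0.65 ± 0.06, while SCL1, PUP3, PRE2 and PRE7 had estimates between -0.08 and 0.04. The highest core gene was up to 11.3 times the lowest in a library of 16 to 26 h.

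Of the regulatory particle, the lid subunit RPN8 rose most. It was 176 to 252 scaled TPM at 0 to 4 h, 514 and 372 at 16 h, and 756 to 916 at 22 to 26 h, a change of 1.90 ± 0.11 (adjusted p = 2.14e-12). The receptor RPN13 rose by 1.11 ± 0.09, the ATPases RPT2 and RPT4 by 0.86 ± 0.07 and 0.72 ± 0.07, and the lid subunit RPN5 by 0.80 ± 0.10. The lid also held members that fell, RPN9 with -0.62 ± 0.12 and RPN7 with -0.60 ± 0.08, and the base held RPN1 with -0.32 ± 0.10 and RPT1 with -0.22 ± 0.08. RPN12 and RPN6, which led the subunits at 16 h, were higher by 0.23 ± 0.10 and 0.28 ± 0.06. With library medians centred, RPN11 and RPN12 had -0.03 and -0.01.

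The 5 subunits without a full PACE match spanned the whole range of late changes, from PUP1 at -1.55 over PRE5 at 0.40 and RPN10 at 0.30 to RPN13 at 1.11 and RPN8 at 1.90. The 27 with a match ran from -1.09 to 0.96. RPN4 was 61.9 to 64.6 scaled TPM at 4 h and reached 191 and 182 at 26 h, its highest level of the course, and rose by 0.53 between 24 and 26 h (adjusted p = 0.0249). In the pathway, 12 genes were higher and 7 lower at 22 to 26 h: the base chaperones RPN14, NAS2 and HSM3 rose by 1.86 ± 0.11, 1.72 ± 0.11 and 1.63 ± 0.13, and POC4 fell by 1.92 on the log2 scale.

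**Figure D5:**
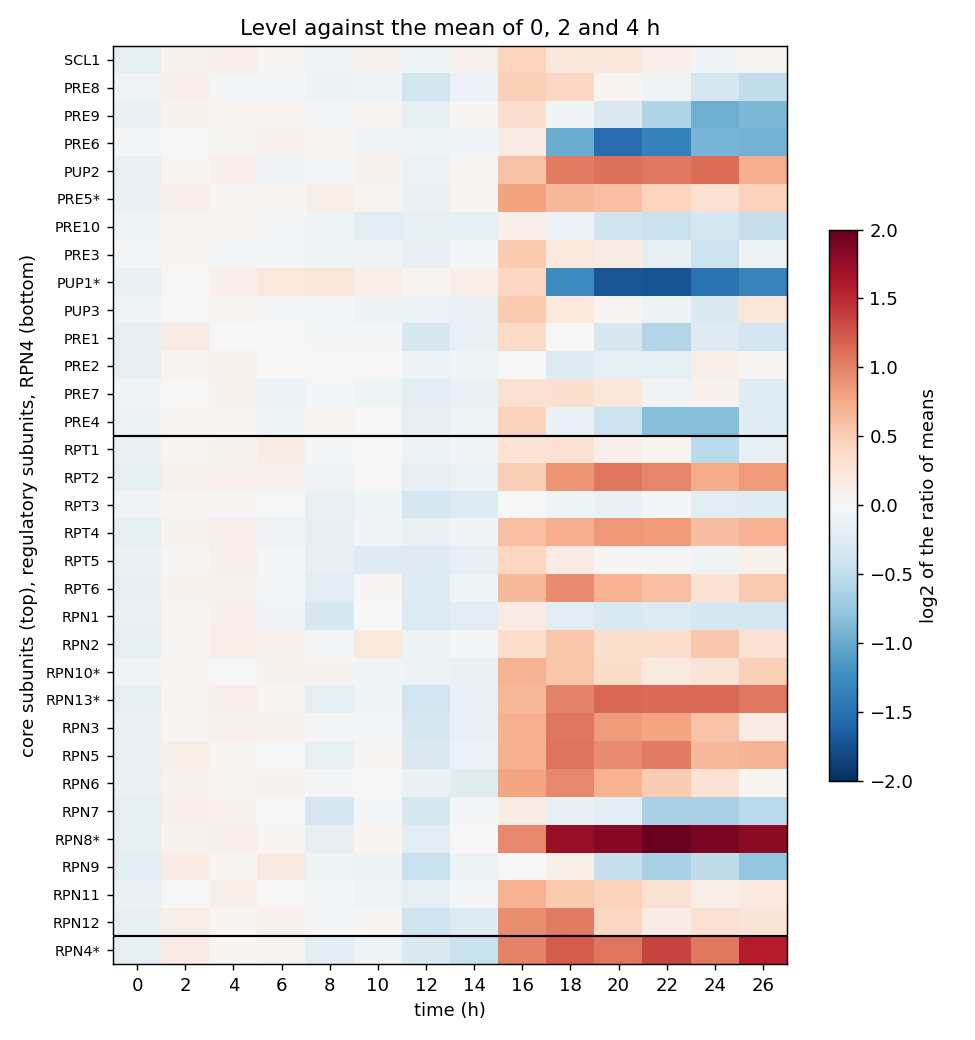
Level of each member at each time in hours, as the log2 ratio of the mean of 2 libraries to the mean of 0, 2 and 4 h; core genes are at the top, regulatory genes in the middle and RPN4 at the bottom, and an asterisk marks genes without a full PACE match. Red cells from 16 h on are widespread, and PUP1 and PRE6 turn blue at 18 h while RPN8 stays red.

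Libraries without a control of their own experiment are given as levels. In exp4 the summed core level ran from 2919 to 4064 scaled TPM and the regulatory level from 2808 to 4034, and RPN4 was highest in A21 (101 and 114) and lowest in the single library of A20 (28.1). A21 was thus the strain with the highest mean of RPN4 in exp1, exp3, exp4 and the chemostat, and in exp2 its mean of 131 was below that of A20 at 146. In the W303 cells treated with NaCl, the core sum was 1084 to 1412, the regulatory sum 1254 to 1767, and RPN4 18.6, 27.3 and 14.2 in the 3 libraries.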

How the data were processed

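The deposited table gives expression of 6692 genes on a log2 scale, as log2(TPM + 1). STAR 2.5.3a and RSEM 1.3.0 were run by the authors, per the submitters' processing notes; read depth is unknown. Values were turned back to TPM, scaled so that nuclear open reading frames summed to 1000000 per library, and written as log2(value + 1), which understates changes of low genes. Genes with a mean log2 value of at least 5 over the libraries of a fit were tested with limma 3.58.1 (R 4.3.3; variance trend), Benjamini-Hochberg over all genes, threshold 0.05. Batch culture used 44 libraries of exp1 to exp3 with strain and experiment as terms, the chemostat 20, the populations with WT 15, the time course 28, exp5 with exp6 48. Fits were tested on simulated data. The p-values measure the spread between libraries, which may be technical. Titles decided strains for 2 libraries whose strain field differs (exp4 A18 replicate 2 and chemostat A24 replicate 2), and the last time is 26 h by title, although the library code of those 2 libraries says 28 h; this bears on the step from 24 to 26 h and on the 22 to 26 h group. For the start codons of the deposited annotation, 99.94% read ATG in R64. All 33 members could be named; of 30 pathway genes, counts and up to 4 called genes with the largest change. Members and lists were chosen with earlier results of these data known.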

Additional observations from a re-analysis of the deposited data

Results flagged for a closer look

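Among 35 measures (33 members and both sums) in the 4 libraries of 2N in exp1, the only set large enough for such a check, RPN2 had a library apart from the others, at 374 scaled TPM against 332 to 336. About 1 in 20 such groups would be marked by chance. The aneuploid effect differed between the Tsai and dilution protocols for 31 members, and for 84.0% of 3904 tested genes. The median of all genes was -0.26 in this difference, and the values that follow are not relative to it. The largest differences, as Tsai minus dilution on the log2 scale, were -0.58 for PRE2, -0.56 for RPT4, -0.53 for RPN11 and -0.51 for RPN8, and RPN4 had -0.35 (adjusted p = 0.000788, limma).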

How the results depend on the processing

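Counts of the 33 members called stayed within 1.5 times under most alternatives. In batch culture (7 called) the exceptions were the replicate block (4), chromosome medians centred (2), exp1, exp2 and exp3 alone (1, 0 and 2) and strain as a random block (0). In the chemostat (3) they were a filter at a mean of 7, chromosome medians centred and the libraries of code d204 (1 each). With library medians centred the Tsai minus dilution count went from 31 to 19 and the 16 h count from 26 to 17, and on values as deposited the 16 h count was 1. Leaving out a library gave 4 to 9 in batch culture, 1 to 4 in the chemostat, 0 to 0 for chemostat minus batch culture, 20 to 24 and 33 to 33 for the Tsai and dilution aneuploid effects, 30 to 31 for their difference, 21 to 23 and 15 to 18 for the Tsai and dilution euploid populations against WT, 30 to 32 for any change over time, 21 to 25 at 16 h, 25 to 27 at 22 to 26 h and 33 to 33 in exp5 and exp6. Where a time keeps 1 library, it is assumed to vary like the others.

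Replicate numbers were not found to pair samples: correlations of same-numbered deviations ran from -0.155 to 0.089 in batch culture and from -0.685 to 0.591 in the chemostat, and no fit had every pair above 0.1. With the replicate block the other counts were 3 in the chemostat, 0 for chemostat minus batch culture, 23 and 33 for the Tsai and dilution aneuploid effects, 31 for their difference, 23 and 17 for the euploid populations against WT, 31, 26 and 27 in the time course (any change, 16 h, 22 to 26 h) and 33 in exp5 and exp6.

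Signs changed as follows. RPN4, not called in batch culture or the chemostat, was -0.0576 in exp1 alone, -0.0582 in the chemostat on values as deposited, and -0.11, -0.0115 and -0.0063 without the first chemostat library of 2N, A23 and A38, over a range of -0.11 to 0.184 when any library was left out. In chemostat minus batch culture RPN4 was 0.0 with library medians centred, 0.0014 and 0.118 without the second 2N library of exp2 and the first of exp3, and 0.0972 and 0.0355 without the second chemostat libraries of 2N and A23, over a range of -0.198 to 0.118. RPT4 was 0.11 in exp3 alone and RPN9 0.0775 in the code d204 libraries. Library medians centred gave, for the dilution effect, PRE10 -0.0478, RPN8 -0.0597 and RPT5 -0.0854; for Tsai minus dilution, PRE10 0.0168, PUP3 0.0616, RPN12 0.0048, RPN7 0.0020, RPT5 0.0427 and SCL1 0.0515; for the Tsai euploid population, PRE7 -0.0642, RPN11 -0.0847, RPN12 -0.027, RPN3 -0.0196, RPN6 -0.0374, RPT2 -0.0715 and RPT4 -0.0803; and at 22 to 26 h, RPN11 -0.0328 and RPN12 -0.0105. On values as deposited, 22 to 26 h gave PRE5 -1.07, PUP2 -0.52, RPN10 -1.17, RPN11 -1.26, RPN12 -1.23, RPN13 -0.37, RPN2 -1.06, RPN3 -0.95, RPN4 -0.15, RPN5 -0.68, RPN6 -1.19, RPT2 -0.62, RPT4 -0.75 and RPT6 -1.0004. Other causes of these changes were not tested. Of 3484 values of single members under alternatives, 3207 kept direction and call, 233 lost the call and 44 changed sign.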
